A study of Mus musculus with 20 samples.

Results

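The voltage-gated and potassium channel genes described here are those on the mouse MG_U74Av2 array whose symbols begin with Kcn, Cacn or Clcn, or with Scn or Hcn and a digit. The rule took 88 probe sets of 68 genes, of 8251 genes read by a probe set with 1 symbol. A probe set is a group of short probes that together read 1 transcript, and 18 of the 68 genes had more than 1. Total RNA was taken from the left ventricle and the quadriceps of female mice aged 32 to 34 weeks. The 4 groups were SJL/J left ventricle, C57BL/6 left ventricle, SJL/J quadriceps and C57BL/6 quadriceps, with 5 arrays each, which the labels call biological replicates. SJL/J is an inbred strain whose dysferlin gene carries an in-frame deletion and which develops a muscle disease with weakness. C57BL/6 mice, with normal dysferlin, served as controls. They are another inbred strain, so strain background and dysferlin genotype cannot be told apart. No probe set was annotated to the dysferlin gene, so its transcript was not analysed here. The descriptive text of the SJL/J quadriceps arrays names the left ventricle as the source of RNA, whereas their source and keyword labels name quadriceps, which was followed here.

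Voltage-gated channels open or close with the membrane potential, and each action potential of a muscle cell is their work in sequence: sodium channels start it, calcium channels couple it to contraction, and potassium channels end it. Skeletal muscle relies on a calcium channel that acts as a voltage sensor and on a large resting chloride conductance. Heart muscle relies on a calcium channel that carries calcium into the cell and on several potassium currents that shape a long action potential. The symbols also take in genes that are not voltage-gated: inward rectifiers and two-pore domain channels, which hold the resting potential, auxiliary subunits, and several Clcn genes that encode chloride-proton exchangers of intracellular membranes.

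Each array had been scaled by the authors to a common mean, so depth does not differ, and the number of arrays sets the precision. Markers of the 2 tissues separated them, but 4 arrays hybridised in 1 fluidics run, as times in the array headers show, carried transcripts of the other tissue. An index of 10 heart muscle markers was scaled to 0 for the mean of C57BL/6 quadriceps and 1 for that of C57BL/6 left ventricle. It was 0.824 and 1.0 on SJL/J quadriceps arrays 1 and 5, 0.587 on array 3, and -0.171 and -0.0742 on arrays 2 and 4, against -0.335 to 0.410 in C57BL/6 quadriceps. A like index of 11 skeletal muscle markers, 0 in C57BL/6 left ventricle, was 0.656 on SJL/J left ventricle array 1 and 0.597 on C57BL/6 left ventricle array 5, and at most 0.173 on the other 8 left ventricle arrays. SJL/J quadriceps arrays 1 and 5, SJL/J left ventricle array 1 and C57BL/6 left ventricle array 5 made up that run, called run 3 below, and results are given with and without it. The ratio of 5′ to 3′ Gapdh control signal, a measure of RNA integrity and labelling, was 0.300 ± 0.134 in SJL/J and 0.797 ± 0.0799 in C57BL/6 left ventricle (SD, n = 5 each, exact two-sided permutation p = 0.00794, the smallest that 5 against 5 allows). In quadriceps it was 0.503 ± 0.150 in SJL/J and 0.831 ± 0.216 in C57BL/6 (SD, n = 5 each, exact two-sided permutation p = 0.0397). Outside run 3, every SJL/J left ventricle array came from 1 run and every C57BL/6 left ventricle array from another, so that run and strain cannot be told apart there.

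Of the 88 channel probe sets, 38 (43.2%) had a group mean above the array-wide median signal of 69.0 in at least 1 group, against 57.3% of all 12422 probe sets tested. The other 50 were dim in all 4 groups. Since no present or absent call was used, a dim signal is not read as absence. For 36 of the 68 genes every probe set was dim. The dim genes included channels known mainly from nerve, such as Scn1a, Scn3a, Scn8a and Scn9a, the sodium channel pore subunits of neurons, and Cacna1a and Cacna1e, pore subunits of neuronal calcium channels. They also included Kcnj2, the pore of the classical inward rectifier, with at most 16.5 on any array, and Kcnj5, a subunit of the acetylcholine-gated channel of the atrium, with at most 12.3. The genes with the highest mean signal over the 20 arrays were Clcn3, Cacna1s, Cacna1c, Hcn2, Cacng1, Clcn1, Clcn4, Cacnb2, Kcnq1, Kcnh2, Clcn7 and Kcnj8.

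The larger differences in these genes were between the tissues. In SJL/J mice 14 of the 88 probe sets were called, that is, passed the test (limma, Benjamini-Hochberg adjusted p under 0.05 over all probe sets). Of these, 7 were higher and 7 lower in the left ventricle than in the quadriceps. They make 15.9% of the members, against 18.7% called over the array (10.5% higher, 8.22% lower). In C57BL/6 mice 31 probe sets of 28 genes were called, 20 higher and 11 lower, or 35.2%, against 30.4% over the array (18.2% higher, 12.2% lower). These shares are near the background, so the counts are not a result about channels. Without run 3 the counts were 25 in SJL/J, against 30.5% over the array, and 26 in C57BL/6, against 26.1% over the array. Runs and tissues go together in part. No run held both C57BL/6 tissues, and 4 of the 5 C57BL/6 quadriceps arrays were of another chip lot than all other arrays. Only run 3 held both SJL/J tissues, with 1 left ventricle and 2 quadriceps arrays. A fit with the run as a block takes the SJL/J difference from those arrays alone. They carry transcripts of the other tissue, so that fit cannot tell whether the calls hold apart from the run. With the run as a block 1 member was called in SJL/J, against 0.0403% over the array, and 0 of the 14 kept their call. With the run as a random block 17 were called in C57BL/6, all among the 31, against 17.4% over the array. These 2 tissue contrasts share no array. All 14 probe sets called in SJL/J on all arrays were also called in C57BL/6 and in the same direction. Without run 3, 18 were called in both and all 18 in the same direction, which is 72% of those called in SJL/J and 69.2% of those called in C57BL/6. The same overlap was not counted over all probe sets, so it is not read as a result about channels. In bulk tissue, fewer cells of a type and less RNA per cell cannot be told apart, here or in any comparison that follows.

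The pore subunits of the L-type calcium channel divided by tissue. Cacna1c encodes the pore through which calcium enters heart cells at each beat. Its signal was 1349, 1292, 1541, 1512 and 1922 in SJL/J left ventricle, against 819, 65.2, 159, 78.8 and 814 in SJL/J quadriceps, in array order. In C57BL/6 it was 1413, 1398, 1391, 1247 and 1207 in left ventricle, against 60.4, 152, 73.8, 111 and 71.4 in quadriceps. Left ventricle lay above quadriceps on every array, and the 2 high SJL/J quadriceps values are those of run 3. The log2 difference in SJL/J, left ventricle minus quadriceps, was 2.76 ± 0.71 (SE, adjusted p = 0.0220) on all arrays and 4.05 ± 0.30 (SE, adjusted p = 0.000104) without run 3. For C57BL/6 it was 3.91 ± 0.23 (SE, adjusted p = 1.49e-06). Cacna1s encodes the voltage sensor that triggers calcium release in skeletal muscle. It had the opposite order, with 165, 43.2, 50.3, 52.9 and 48.4 in SJL/J left ventricle, against 449, 1329.8, 1345, 1664 and 411 in SJL/J quadriceps. In C57BL/6 its signal was 122, 68.0, 97.8, 97.4 and 181 in left ventricle, against 2629, 1932, 2243, 4237 and 1719 in quadriceps. The tissues did not overlap in either strain, and the run 3 arrays stood nearest the other tissue. Its log2 difference in SJL/J was -3.84 ± 0.50 (SE, adjusted p = 0.00168) on all arrays and -4.89 ± 0.12 (SE, adjusted p = 2.43e-06) without run 3, and in C57BL/6 -4.49 ± 0.29 (SE, adjusted p = 2.59e-06).

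Of the 5 auxiliary subunits of calcium channels, 1 was called in SJL/J (lower in left ventricle) and 2 in C57BL/6 (1 higher, 1 lower). Cacng1, the gamma subunit of the skeletal muscle channel, read 18.7 to 118 in SJL/J left ventricle, against 357, 1781, 1760.2, 1609 and 281 in SJL/J quadriceps. On the C57BL/6 arrays it read 27.4 to 106 in left ventricle, against 673 to 1398 in quadriceps. All left ventricle arrays lay below all quadriceps arrays, with a log2 difference in SJL/J of -4.30 ± 0.68 (SE, adjusted p = 0.00342) on all arrays and -5.62 ± 0.44 (SE, adjusted p = 0.000130) without run 3. For C57BL/6 it was -4.55 ± 0.35 (SE, adjusted p = 8.15e-06). Cacnb2, a beta subunit that carries the pore to the membrane, read 147 to 414 in SJL/J left ventricle, against 229, 33.5, 73.3, 84.2 and 391 in SJL/J quadriceps. C57BL/6 mice had 447 to 639.5 in left ventricle, against 24.2 to 96.0 in quadriceps. In SJL/J its log2 difference did not pass on all arrays, at 1.43 ± 0.61 (SE, adjusted p = 0.131), and passed without run 3, at 2.33 ± 0.46 (SE, adjusted p = 0.00774). For C57BL/6 it was 3.24 ± 0.31 (SE, adjusted p = 3.23e-05). Cacna2d1, which encodes the alpha-2-delta subunit, was called in SJL/J without run 3 alone, at -1.69 ± 0.35 (SE, adjusted p = 0.00911), against -0.47 ± 0.42 (SE, adjusted p = 0.457) in C57BL/6 on all arrays.

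**Figure D1:**
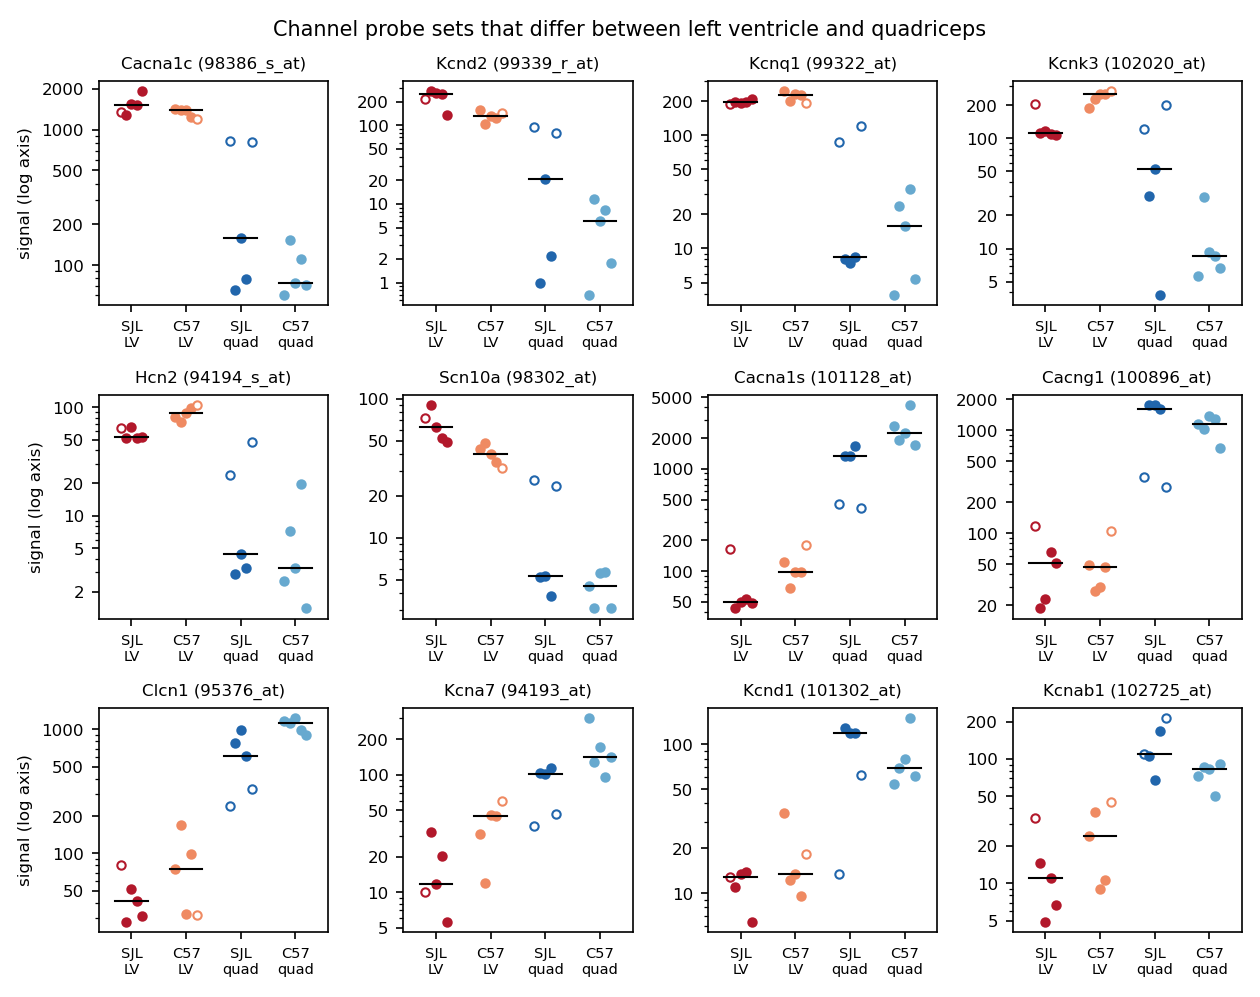
Signal (log axis) of 12 channel probe sets in SJL/J and C57BL/6 left ventricle (LV) and quadriceps (quad), 1 point per array and a line at the group median of 5; open points are the 4 arrays of run 3. Each gene is shown by its probe set with the largest absolute tissue difference in C57BL/6. The first 6 panels are higher in left ventricle and the last 6 in quadriceps, but the tissues overlap for Kcnk3 in SJL/J. The open points of SJL/J quadriceps often stand apart from the filled ones, as in Cacna1c (819 and 814, against 65.2 to 159).

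Of the 19 probe sets of voltage-gated potassium channel pores, 3 were higher and 2 lower in left ventricle in SJL/J, and 6 were higher and 2 lower in C57BL/6. Kcnd2, the pore of the fast transient outward current, read 215, 271, 260, 252 and 135 in SJL/J left ventricle, against 95.4, 1.0, 20.8, 2.2 and 79.2 in SJL/J quadriceps. In C57BL/6 it read 158, 104, 133, 123 and 142 in left ventricle, against 0.7, 11.5, 6.0, 8.3 and 1.8 in quadriceps. The tissues did not overlap, and the highest of the 10 quadriceps arrays were the 2 of run 3. The log2 difference in SJL/J was 3.66 ± 0.96 (SE, adjusted p = 0.0245) on all arrays and 5.21 ± 0.70 (SE, adjusted p = 0.00129) without run 3, and in C57BL/6 4.53 ± 0.38 (SE, adjusted p = 1.41e-05). Its second probe set (98364_at) was dim in all groups and was called in neither strain. Kcnq1, the pore of the slow delayed rectifier, read 189 to 207 in SJL/J left ventricle, against 87.1, 8.1, 7.4, 8.4 and 121 in SJL/J quadriceps, and 191 to 244 in C57BL/6 left ventricle, against 3.9, 23.7, 15.9, 33.4 and 5.4 in C57BL/6 quadriceps. The log2 difference in SJL/J was 3.15 ± 0.81 (SE, adjusted p = 0.0221) on all arrays and 4.64 ± 0.19 (SE, adjusted p = 1.28e-05) without run 3, and in C57BL/6 4.16 ± 0.55 (SE, adjusted p = 0.000248). The second Kcnq1 probe set (161796_r_at), the brighter of the pair, pointed the same way with a far smaller difference, 0.48 ± 0.15 (SE, adjusted p = 0.0512) in SJL/J and 0.41 ± 0.13 (SE, adjusted p = 0.0384) in C57BL/6. The array thus gives 2 very different sizes of tissue difference for this gene.

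Kcna5, the pore of the ultrarapid delayed rectifier, read 86.4 to 122 in SJL/J left ventricle, against 51.8, 4.0, 19.9, 10.3 and 95.1 in SJL/J quadriceps, and 118 to 252 in C57BL/6 left ventricle, against 36.5 to 91.3 in C57BL/6 quadriceps. In SJL/J its difference missed the threshold on all arrays, at 2.31 ± 0.73 (SE, adjusted p = 0.0519), and passed without run 3, at 3.50 ± 0.52 (SE, adjusted p = 0.00218). In C57BL/6 it was called at 1.71 ± 0.29 (SE, adjusted p = 0.00122). Its second probe set (161775_f_at), dim at 4.0 to 23.7, had the opposite sign and was not called, at -0.98 ± 0.51 (SE, adjusted p = 0.215) in SJL/J and -0.76 ± 0.44 (SE, adjusted p = 0.235) in C57BL/6. Kcnk3, a two-pore channel that carries background current, read 106 to 206 in SJL/J left ventricle, against 120.4, 29.8, 52.8, 3.8 and 199 in SJL/J quadriceps. C57BL/6 mice had 189 to 268 in left ventricle, against 5.6 to 29.4 in quadriceps. The tissues overlapped in SJL/J, where the log2 difference was 1.55 ± 0.89 (SE, adjusted p = 0.264) on all arrays and 2.61 ± 0.82 (SE, adjusted p = 0.0499) without run 3. They did not overlap in C57BL/6, where it was 4.60 ± 0.41 (SE, adjusted p = 1.76e-05). Kcnj8, a pore subunit of the ATP-sensitive channel, was called in both strains, at 1.70 ± 0.35 (SE, adjusted p = 0.00972) in SJL/J and 1.44 ± 0.16 (SE, adjusted p = 9.47e-05) in C57BL/6. Kcna1, a delayed rectifier pore known from nerve, was called in both strains with a small difference between dim signals, at most 16.6 on any array.

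Kcnh2, the pore of the rapid delayed rectifier, read 199.9, 122, 159.9, 159 and 192 in SJL/J left ventricle, against 196, 119, 122, 134 and 217 in SJL/J quadriceps. These groups overlapped, and the SJL/J difference did not pass, at 0.10 ± 0.21 (SE, adjusted p = 0.774) on all arrays and 0.32 ± 0.16 (SE, adjusted p = 0.188) without run 3. On the C57BL/6 arrays it read 244, 239, 217, 298 and 248 in left ventricle, against 47.1, 82.9, 107, 187 and 80.2 in quadriceps. The C57BL/6 groups did not overlap, and the log2 difference was 1.44 ± 0.30 (SE, adjusted p = 0.00428). Kcne1, the partner of Kcnq1 in the slow delayed rectifier, read 12.3 to 73.1 in SJL/J left ventricle, against 13.8 to 51.0 in SJL/J quadriceps, which overlap. In C57BL/6 it read 40.0 to 71.9 in left ventricle, against 8.4 to 33.2 in quadriceps, and was called at 1.88 ± 0.38 (SE, adjusted p = 0.00334). Kcnd3, the other transient outward pore of heart, was called in neither strain, with 73.2 to 229.9 in C57BL/6 left ventricle, against 96.5 to 141 in C57BL/6 quadriceps. Kcnj11, the other pore subunit of the ATP-sensitive channel, narrowly missed the threshold in C57BL/6, at 1.44 ± 0.50 (SE, adjusted p = 0.0506).

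Hcn2 encodes a pacemaker channel that opens on hyperpolarisation. Its probe set 94194_s_at read 52.2 to 65.1 in SJL/J left ventricle, against 23.8, 2.9, 4.4, 3.3 and 47.8 in SJL/J quadriceps, and 72.8 to 106 in C57BL/6 left ventricle, against 1.4 to 19.4 in C57BL/6 quadriceps. The tissues did not overlap. The log2 difference in SJL/J was 2.70 ± 0.74 (SE, adjusted p = 0.0290) on all arrays and 3.95 ± 0.27 (SE, adjusted p = 7.12e-05) without run 3, and in C57BL/6 4.03 ± 0.49 (SE, adjusted p = 0.000147). The second probe set (94195_r_at), far brighter, was bright in both tissues. It did not pass in SJL/J, at 0.10 ± 0.15 (SE, adjusted p = 0.664), and passed in C57BL/6, at 0.59 ± 0.20 (SE, adjusted p = 0.0444). The suffixes _s_at and _r_at mark probe sets that the array's design rules allow to match related transcripts or to break a selection rule, so values of Hcn2, Cacna1c and Kcnd2 carry that uncertainty. Scn10a, the sodium channel pore known from sensory neurons, read 49.3 to 90.8 in SJL/J left ventricle, against 25.9, 5.2, 5.3, 3.8 and 23.7 in SJL/J quadriceps, and 31.8 to 48.0 in C57BL/6 left ventricle, against 3.1 to 5.7 in C57BL/6 quadriceps. All left ventricle arrays lay above all quadriceps arrays, by 2.80 ± 0.57 (SE, adjusted p = 0.00861) in SJL/J and 3.19 ± 0.25 (SE, adjusted p = 9.84e-06) in C57BL/6, although no group mean was above the array's median signal. Markers of nerve and Schwann cells, 7 of 10 measured, had a summed signal of 743 to 958 in SJL/J left ventricle, against 535 to 821 in SJL/J quadriceps, and of 646 to 785 in C57BL/6 left ventricle, against 475 to 718 in C57BL/6 quadriceps. Between the tissues limma called 1 of the 7 higher and 1 lower in left ventricle in SJL/J, with and without run 3. In C57BL/6 it called 1 higher and 0 lower on all arrays, and 0 higher and 1 lower without run 3. By group mean, 3 of the 7 (S100b, Nefl and Nefm) were below the array's median signal in all 4 groups. Their part in the Scn10a difference was not tested.

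Of the 13 probe sets of chloride channels and exchangers, 1 was called in SJL/J, lower in left ventricle, and 4 in C57BL/6, 1 higher and 3 lower. Clcn1, which carries the resting chloride conductance and whose loss causes myotonia, read 80.0, 28.1, 51.7, 41.5 and 31.4 in SJL/J left ventricle, against 243, 781, 989.6, 609 and 328 in SJL/J quadriceps. C57BL/6 mice had 74.9, 169, 32.6, 98.2 and 31.9 in left ventricle, against 1165, 1128, 1229, 993 and 905 in quadriceps. The groups did not overlap, and the log2 difference in SJL/J was -3.58 ± 0.42 (SE, adjusted p = 0.00120) on all arrays and -4.39 ± 0.26 (SE, adjusted p = 4.29e-05) without run 3. For C57BL/6 it was -4.02 ± 0.42 (SE, adjusted p = 5.14e-05). The second Clcn1 probe set (102622_r_at), dim at 4.5 to 28.8, had the opposite sign and was not called, at 0.56 ± 0.55 (SE, adjusted p = 0.522) in SJL/J and 0.34 ± 0.40 (SE, adjusted p = 0.578) in C57BL/6. Kcna7, a delayed rectifier pore of the Shaker family, read 5.6 to 32.4 in SJL/J left ventricle, against 36.8 to 114 in SJL/J quadriceps, and 11.9 to 59.8 in C57BL/6 left ventricle, against 95.9 to 302 in C57BL/6 quadriceps. It was lower in left ventricle, with a log2 difference of -2.44 ± 0.52 (SE, adjusted p = 0.0102) in SJL/J and -2.19 ± 0.45 (SE, adjusted p = 0.00368) in C57BL/6. Kcnd1, a transient outward pore, and Kcnab1, a beta subunit that speeds inactivation, were also lower in left ventricle. Kcnd1 differed by -2.63 ± 0.60 (SE, adjusted p = 0.0136) in SJL/J and -2.28 ± 0.40 (SE, adjusted p = 0.00148) in C57BL/6. Kcnab1 differed by -3.46 ± 0.52 (SE, adjusted p = 0.00285) in SJL/J and -1.85 ± 0.46 (SE, adjusted p = 0.0114) in C57BL/6. Its second probe set (162087_f_at) was dim in all groups and called in neither strain. Kcnk4, a two-pore channel sensitive to stretch and lipids, was lower in left ventricle with a log2 difference of -0.66 ± 0.15 (SE, adjusted p = 0.0140) in SJL/J and -1.08 ± 0.34 (SE, adjusted p = 0.0344) in C57BL/6.

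Kcnma1, the pore of the large-conductance calcium-activated potassium channel, read 64.8, 47.2, 49.3, 53.4 and 47.4 in SJL/J left ventricle, against 102, 65.4, 74.7, 90.8 and 58.4 in SJL/J quadriceps. In SJL/J it passed without run 3 alone, at -0.63 ± 0.19 (SE, adjusted p = 0.0461). In C57BL/6 it read 69.1, 48.6, 38.7, 45.9 and 41.2 in left ventricle, against 182, 146, 120.2, 147 and 169 in quadriceps, with no overlap and a log2 difference of -1.66 ± 0.19 (SE, adjusted p = 0.000107). Kcnj12, an inward rectifier pore, did not pass in SJL/J, at -0.77 ± 0.29 (SE, adjusted p = 0.0883), and was called in C57BL/6, at -1.06 ± 0.18 (SE, adjusted p = 0.00140). Of the intracellular chloride-proton exchangers, Clcn3 was lower in C57BL/6 left ventricle, with a log2 difference of -0.91 ± 0.26 for the bright probe set and -0.83 ± 0.24 for 94463_at (SE, adjusted p = 0.0243 and 0.0239), and its other 2 probe sets were not called. Clcn7 was higher by 0.61 ± 0.13 (SE, adjusted p = 0.00487) for the brighter of its 2 probe sets. The other members called higher in C57BL/6 left ventricle were Kcnk7 at a log2 difference of 0.81, Kcnn4 at 1.07 and, between dim signals, Cacna1g at 1.78, Kcnj3 at 1.54 and Kcnj9 (98332_at) at 1.20. In SJL/J without run 3, Scn7a, Kcnj9 (161799_r_at) and the second Kcnq1 probe set were also called higher in left ventricle, and Kcna3, Kcnj1 (103973_at) and Kcnn1 lower.

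**Figure D2:**
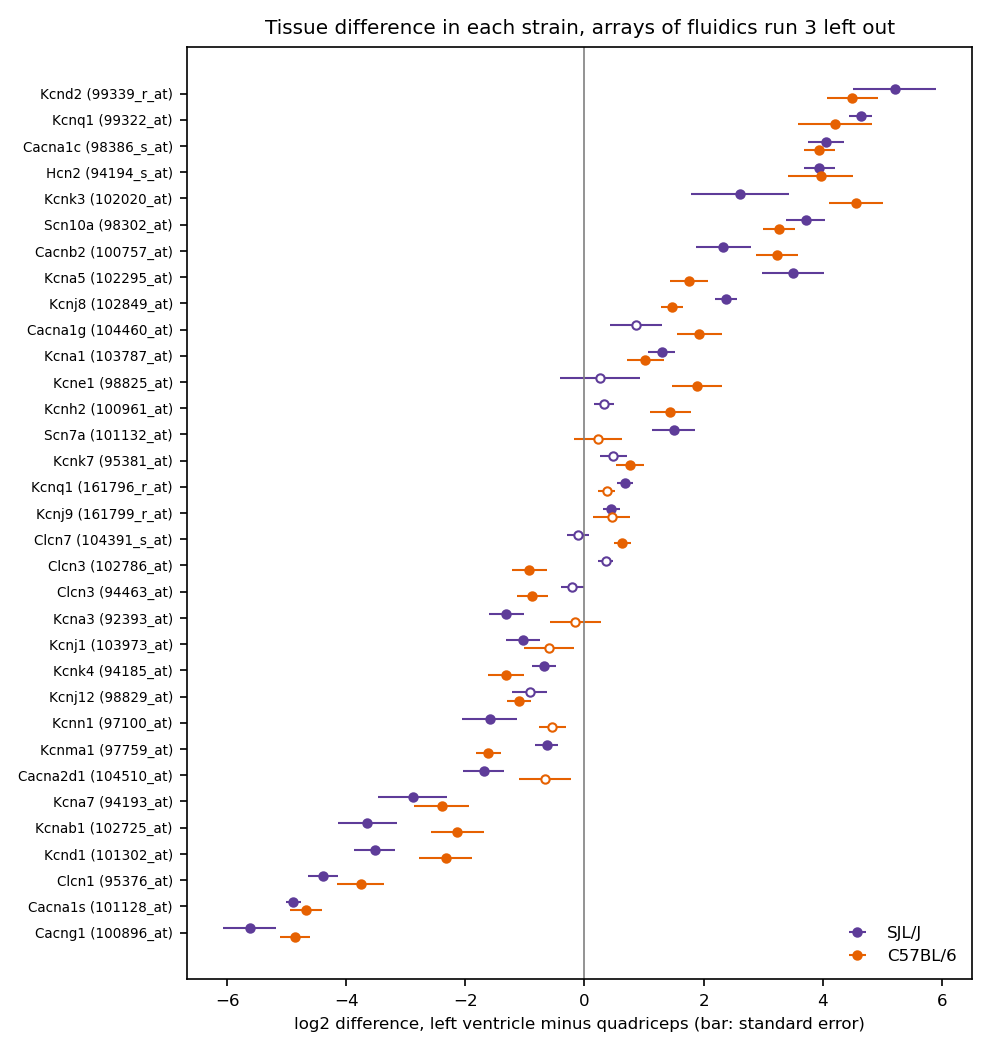
Log2 difference, left ventricle minus quadriceps, with its standard error, for the 33 channel probe sets called in at least 1 strain without run 3; filled points passed the test. Of these, 18 passed in both strains and lie on the same side of 0 in both, from Cacng1 (-5.62 in SJL/J and -4.86 in C57BL/6) to Kcnd2 (5.21 in SJL/J and 4.50 in C57BL/6).

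Sequence upstream of the tissue-divided channels is shown for the 3 with the largest mean difference in each direction among the 18, taking genes with a single listed start in the RefSeq promoter table of build GRCm38.p6, which held 53 of the 68 genes. Each line gives the 250 bases before the annotated start, 5′ to 3′ on the gene's strand. Capitals mark 4 motifs known from muscle promoters, searched on both strands: the E-box CANNTG, the M-CAT element CATTCC, the MEF2 site and the CArG box. The first 3 are higher in quadriceps: Cacna1s (chr1:136052561-136052810, plus strand), Clcn1 (chr6:42286435-42286684, plus strand) and Kcna7 (chr7:45405710-45405959, plus strand). The last 3 are higher in left ventricle: Kcnd2 (chr6:21215096-21215345, plus strand), Hcn2 (chr10:79716384-79716633, plus strand) and Scn10a (chr9:119719033-119719282, minus strand).
Cacna1s: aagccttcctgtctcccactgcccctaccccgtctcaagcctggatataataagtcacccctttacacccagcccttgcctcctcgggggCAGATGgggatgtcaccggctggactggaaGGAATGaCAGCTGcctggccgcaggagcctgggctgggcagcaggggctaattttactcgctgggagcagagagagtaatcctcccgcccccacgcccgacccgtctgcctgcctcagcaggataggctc
Clcn1: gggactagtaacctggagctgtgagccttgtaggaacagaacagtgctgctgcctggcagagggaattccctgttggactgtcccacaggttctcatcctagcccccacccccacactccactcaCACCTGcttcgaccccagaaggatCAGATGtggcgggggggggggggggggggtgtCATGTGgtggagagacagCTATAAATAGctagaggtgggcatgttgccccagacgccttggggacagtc
Kcna7: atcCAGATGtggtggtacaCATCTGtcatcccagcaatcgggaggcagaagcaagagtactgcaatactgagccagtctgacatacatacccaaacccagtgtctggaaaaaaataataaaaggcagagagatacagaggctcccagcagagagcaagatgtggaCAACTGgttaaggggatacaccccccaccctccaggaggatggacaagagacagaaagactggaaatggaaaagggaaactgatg
Kcnd2: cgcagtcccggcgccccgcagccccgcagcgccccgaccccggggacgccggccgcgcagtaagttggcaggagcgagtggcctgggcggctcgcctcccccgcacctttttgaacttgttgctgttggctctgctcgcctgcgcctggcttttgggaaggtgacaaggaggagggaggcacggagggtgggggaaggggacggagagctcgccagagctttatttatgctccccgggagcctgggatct
Hcn2: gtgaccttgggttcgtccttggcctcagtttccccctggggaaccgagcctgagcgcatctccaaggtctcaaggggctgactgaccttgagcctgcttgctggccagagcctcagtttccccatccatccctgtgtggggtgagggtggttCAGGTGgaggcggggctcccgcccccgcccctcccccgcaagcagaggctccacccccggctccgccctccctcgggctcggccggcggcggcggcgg
Scn10a: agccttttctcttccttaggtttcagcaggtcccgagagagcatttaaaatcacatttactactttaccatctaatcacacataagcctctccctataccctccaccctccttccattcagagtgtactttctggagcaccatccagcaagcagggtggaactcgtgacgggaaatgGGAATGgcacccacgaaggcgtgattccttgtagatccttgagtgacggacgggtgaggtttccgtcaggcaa

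The Cacna1s window holds 2 E-boxes and 1 M-CAT element, the Clcn1 window 3 E-boxes and 1 MEF2 site, and the Kcna7 window 3 E-boxes. The Hcn2 window holds 1 E-box, the Scn10a window 1 M-CAT element, and the Kcnd2 window holds 0 of the 4 motifs. No 2 of the marked motifs overlap. An E-box is common: 66.2% of all 32851 promoter windows of this length hold one, while 12.6% hold an M-CAT element, 2.92% a MEF2 site and 1.47% a CArG box. Counted by gene, with a motif in at least 1 window, 40 of the 53 member genes had an E-box (75.5%, against 69.3% of all 27025 genes in the table) and 14 an M-CAT element (26.4%, against 14.4%). A MEF2 site was there for 3 (5.66%, against 3.42%) and a CArG box for 0 (against 1.62%). Genes with several starts have more than 1 window, and the shares were not tested. The windows also differ in base composition. Upstream of the genes higher in left ventricle there are 22 CG pairs for Kcnd2, 16 for Hcn2 and 8 for Scn10a. Upstream of those higher in quadriceps there are 9 for Cacna1s, 3 for Clcn1 and 1 for Kcna7. The median was 6 over all windows and 8 over the windows of members. These letters describe the windows, and nothing follows from them about any factor.

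In the quadriceps, 2 of the 88 channel probe sets differed between the strains, both lower in SJL/J, against 5.26% of all probe sets on the array (2.46% lower). The members' share of 2.27% is below that background, and 16 had an unadjusted p under 0.05. Kcnma1 read 102, 65.4, 74.7, 90.8 and 58.4 in SJL/J quadriceps, against 182, 146, 120.2, 147 and 169 in C57BL/6 quadriceps. Every SJL/J array lay below every C57BL/6 array. The log2 difference was -0.98 ± 0.20 (SE, adjusted p = 0.0193), and -0.99 ± 0.19 (SE, adjusted p = 0.0297) without run 3, so the loss of those arrays left the call in place. In the 1 run that held both quadriceps groups (3 SJL/J arrays and 1 C57BL/6 array, array 4) it was -0.94. This value has no test and comes from arrays that also entered the call. A fit with the run as a block takes the quadriceps difference from those arrays alone. Kcnj12 read 75.2, 71.6, 70.4, 57.4 and 74.5 in SJL/J quadriceps, against 174, 146, 114, 97.3 and 103 in C57BL/6 quadriceps, and the groups did not overlap. It fell, with a log2 difference of -0.83 ± 0.20 (SE, adjusted p = 0.0384), which became -0.90 ± 0.24 (SE, adjusted p = 0.0767) without run 3 and -0.56 within the shared run. All but 1 of the C57BL/6 quadriceps arrays were of another chip lot and run than the SJL/J ones. With the Gapdh ratio, the run, the chip lot or the other-tissue index in the fit neither was called. With the ratio Kcnma1 differed by -0.99 ± 0.28 (SE, adjusted p = 0.111) and Kcnj12 by -0.60 ± 0.26 (SE, adjusted p = 0.270). With the index, here that of heart markers, Kcnma1 differed by -0.93 ± 0.23 (SE, adjusted p = 0.0635) and Kcnj12 by -0.87 ± 0.24 (SE, adjusted p = 0.0858), and the 2 members called were Kcna5 and Kcne1l instead. With any single array left out, Kcnma1 kept its call in 9 of 10 fits and Kcnj12 in 1 of 10. The count of members was 0 without SJL/J array 2, against 2.75% over the array, and 8 without C57BL/6 array 4, against 8.37%. Without run 3 the count was 2, Kcnma1 and Kcne1l, against 4.10% over the array.

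Of the 12 genes with the highest mean signal, limma called 0 between the strains in quadriceps, although 3 of their probe sets had an unadjusted p under 0.05. Cacna1s read 449, 1329.8, 1345, 1664 and 411 in SJL/J quadriceps, against 2629, 1932, 2243, 4237 and 1719 in C57BL/6 quadriceps. The groups did not overlap, but the difference of -1.45 ± 0.43 (SE, adjusted p = 0.0809) missed the threshold, and without run 3 it was -0.75 ± 0.28 (SE, adjusted p = 0.199). Clcn1 read 243, 781, 989.6, 609 and 328 in SJL/J quadriceps, against 1165, 1128, 1229, 993 and 905 in C57BL/6 quadriceps, with 1 SJL/J array inside the C57BL/6 range, and differed by -1.05 ± 0.35 (SE, adjusted p = 0.110). Cacng1 read 357, 1781, 1760.2, 1609 and 281 in SJL/J quadriceps, against 1151, 1039, 1398, 1284 and 673 in C57BL/6 quadriceps. Its 2 SJL/J arrays of run 3 lay below all others and its remaining 3 above all others. Without run 3 its difference was 0.67 ± 0.23 (SE, adjusted p = 0.160), which did not pass. Kcne1l, a Kcne-like auxiliary subunit, read 15.7, 102, 37.1, 43.6 and 10.5 in SJL/J quadriceps, against 6.3, 7.0, 18.6, 7.9 and 3.6 in C57BL/6 quadriceps. It was called without run 3 alone, at 2.88 ± 0.57 (SE, adjusted p = 0.0317), against 2.04 ± 0.63 (SE, adjusted p = 0.0947) on all arrays. Kcna5 pointed down without run 3, at -2.40 ± 0.56 (SE, adjusted p = 0.0550), just short of the threshold. On all arrays its 2 probe sets differed in sign in quadriceps, and neither was called.

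**Figure D3:**
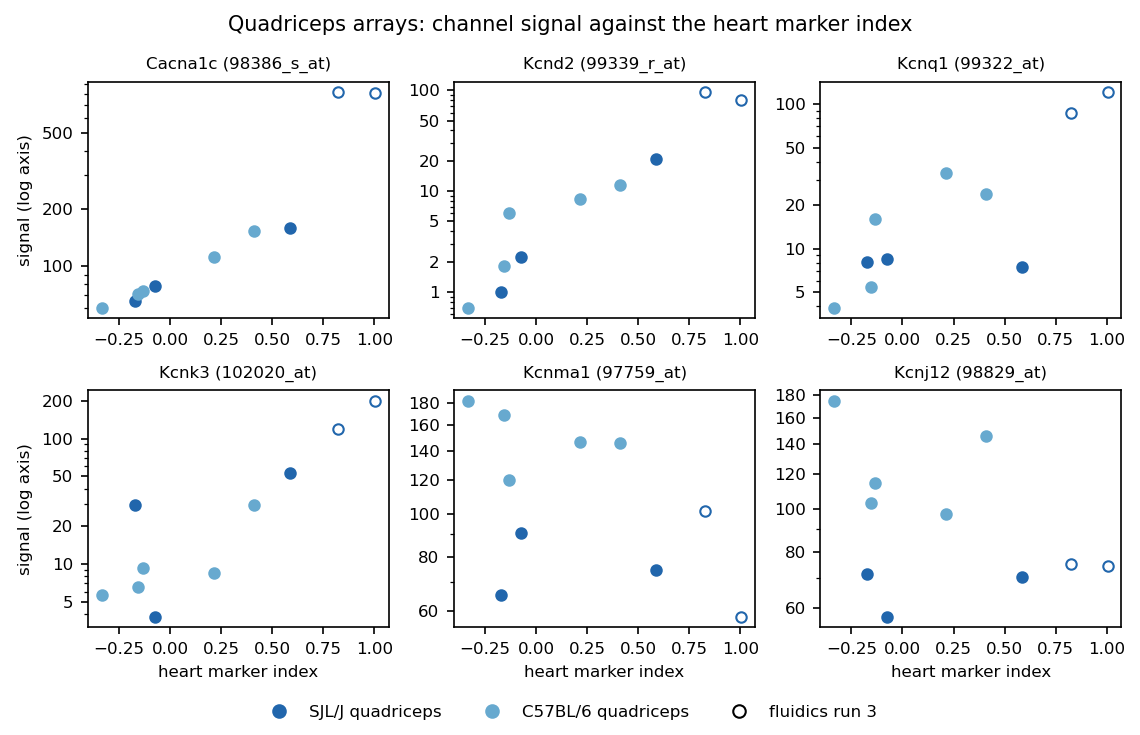
Signal (log axis) of 6 channel probe sets on the 10 quadriceps arrays against the heart marker index (0 is the mean of C57BL/6 quadriceps, 1 that of C57BL/6 left ventricle); dark points are SJL/J, light points C57BL/6 and open points run 3. Cacna1c, Kcnd2, Kcnq1 and Kcnk3 are highest on the 2 open SJL/J points, at an index of 0.824 and 1.0, while Kcnma1 and Kcnj12 are lower on all 5 SJL/J arrays than on any C57BL/6 array.

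On the SJL/J quadriceps arrays of run 3, heart channel signals were high along with the heart markers. On arrays 1 and 5 Cacna1c read 819 and 814, Kcnq1 87.1 and 121 and Kcnk3 120.4 and 199. On arrays 2 and 4, whose heart index was below 0, they read 65.2 and 78.8, 8.1 and 8.4 and 29.8 and 3.8. Array 3, with an index of 0.587, was above arrays 2 and 4 for Cacna1c and Kcnk3 but below both for Kcnq1. None of the 3 was called between the strains in quadriceps. The 10 heart muscle markers had a median log2 difference of 2.0 on all arrays and 0.38 without run 3, and their summed signal was 11557 to 83150 in SJL/J, against 7134 to 30948 in C57BL/6. By limma 0 of the 10 passed, and 1 had an unadjusted p under 0.05. Macrophage markers were called higher in SJL/J quadriceps for 4 of 7, against 348 of 12422 probe sets over the array. Their summed signal was 1697 to 2923 in SJL/J, against 396 to 970 in C57BL/6. In C57BL/6, 3 of the 7 macrophage markers had a group mean below the array's median. Their part in the channel values was not tested.

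Among genes that act with these channels, the largest quadriceps difference was in Rrad, a small GTPase that binds calcium channel beta subunits and dampens the L-type current. It read 764, 948, 1217, 1356 and 1455 in SJL/J quadriceps, against 88.5, 205, 92.3, 94.8 and 109 in C57BL/6 quadriceps, so every SJL/J array was far above every C57BL/6 array. It rose by 3.32 ± 0.26 on the log2 scale (SE, adjusted p = 0.000784). Nedd4l, a ubiquitin ligase that removes channels from the membrane, rose by 1.07 ± 0.19 (SE, adjusted p = 0.0102). These were the 2 called of 23 channel partners measured, both higher, with a list median of 0.15 against 0.07 over all probe sets. Over the array 348 of 12422 probe sets were called higher. Of 16 endplate and denervation genes, 3 were higher in SJL/J quadriceps and 0 lower: Chrnb1, a subunit of the acetylcholine receptor, by 1.46 ± 0.20, Agrn, which organises the endplate, by 1.48 ± 0.37, and Myog, a myogenic factor, by 1.18 ± 0.21 (SE, adjusted p = 0.00450, 0.0423 and 0.0107). The list median was 0.84. Without run 3 the count was 5 higher and 0 lower, against 256 of 12422 called higher over the array. These lists were counted on all arrays and without run 3 alone. They were not followed with the run, chip lot or Gapdh ratio in the fit. In left ventricle limma called 0 of the 16, of which 2 had an unadjusted p under 0.05.

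In the left ventricle 13 channel probe sets of 12 genes differed between the strains, 4 higher and 9 lower in SJL/J, or 14.8%, against 17.3% over the array (8.65% higher, 8.61% lower). The share is near the background and is not a result about channels. Clcn7, the lysosomal chloride-proton exchanger, had the largest difference. Its probe set 104392_at read 21.0, 22.8, 15.9, 16.1 and 20.1 in SJL/J left ventricle, against 62.8, 77.0, 114, 70.8 and 49.6 in C57BL/6 left ventricle, with no overlap and a log2 difference of -1.92 ± 0.24 (SE, adjusted p = 0.000672). Its second and brighter probe set (104391_s_at) read 197, 154, 132, 129.9 and 185 in SJL/J, against 249, 173, 224, 229 and 199.9 in C57BL/6, and at -0.44 ± 0.15 (SE, adjusted p = 0.0691) it did not pass on all arrays. Clcn4, a related exchanger, read 338, 362, 249, 320 and 205 in SJL/J, against 458, 439, 515, 582 and 455 in C57BL/6, and fell by 0.76 ± 0.16 (SE, adjusted p = 0.00960) without overlap. Its second probe set (99672_at), brighter over the 20 arrays, differed by -0.32 ± 0.14 (SE, adjusted p = 0.154) and did not pass. Clcn3 rose in its bright probe set, with 849, 939, 1141, 1106 and 1336 in SJL/J, against 695, 441, 644, 628 and 637 in C57BL/6 and a log2 difference of 0.82 ± 0.15 (SE, adjusted p = 0.00505). Of its other 3 probe sets none was called on all arrays, and 94464_at was called lower without run 3, so the probe sets of Clcn3 pointed in opposite directions.

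Of the potassium channel genes, Kcnk3, Kcnj11, Kcnh2, Kcna5 and Kcnn1 were lower in SJL/J left ventricle. Kcnk3 read 206, 111, 118, 109 and 106 in SJL/J left ventricle, against 189, 229, 253, 250.2 and 268 in C57BL/6 left ventricle. Only SJL/J array 1, of run 3, reached into the C57BL/6 range, and the log2 difference was -0.91 ± 0.19 (SE, adjusted p = 0.00909), or -1.04 ± 0.11 (SE, adjusted p = 0.000927) without run 3. Kcnj11, the ATP-sensitive channel pore, read 30.8, 31.8, 28.6, 36.0 and 23.9 in SJL/J, against 88.1, 35.1, 83.9, 89.7 and 127 in C57BL/6. A single C57BL/6 array was as low as SJL/J, and the difference was -1.39 ± 0.31 (SE, adjusted p = 0.0137). Kcnh2 read 199.9, 122, 159.9, 159 and 192 in SJL/J, against 244, 239, 217, 298 and 248 in C57BL/6, with no overlap, and fell by 0.59 ± 0.14 (SE, adjusted p = 0.0172). Kcna5 read 96.6, 113, 122, 105 and 86.4 in SJL/J, against 118, 173, 153, 252 and 142 in C57BL/6, with some overlap, and fell by 0.64 ± 0.19 (SE, adjusted p = 0.0451). Its dim second probe set had the opposite sign, at 0.22 ± 0.50 (SE, adjusted p = 0.816), and was not called. Kcnn1, a small-conductance calcium-activated channel, read 33.0, 29.3, 80.5, 31.6 and 95.5 in SJL/J, against 72.6, 161, 121, 154 and 130 in C57BL/6, where the groups overlapped, and differed by -1.38 ± 0.38 (SE, adjusted p = 0.0334).

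Both Hcn2 probe sets were lower. Probe set 94194_s_at read 64.6, 52.2, 65.1, 52.4 and 52.8 in SJL/J left ventricle, against 81.7, 72.8, 88.3, 98.7 and 106 in C57BL/6 left ventricle, without overlap, and fell by 0.63 ± 0.15 (SE, adjusted p = 0.0157). Probe set 94195_r_at fell by 0.42 ± 0.12 (SE, adjusted p = 0.0332) with overlapping groups. The members that rose beside Clcn3 were Kcnd2, Kcnk2 and Scn10a. Kcnd2 read 215, 271, 260, 252 and 135 in SJL/J, against 158, 104, 133, 123 and 142 in C57BL/6, where 1 SJL/J array lay within the C57BL/6 range, and rose by 0.75 ± 0.20 (SE, adjusted p = 0.0258). Kcnk2, a two-pore channel that responds to stretch, read 65.1, 76.2, 77.5, 71.1 and 73.3 in SJL/J, against 40.6, 50.6, 52.8, 38.5 and 53.0 in C57BL/6, without overlap, and rose by 0.64 ± 0.15 (SE, adjusted p = 0.0163). Scn10a rose by 0.70 ± 0.21 (SE, adjusted p = 0.0443), between group means that were both below the array's median signal. Cacna1c, with 1349, 1292, 1541, 1512 and 1922 in SJL/J, against 1413, 1398, 1391, 1247 and 1207 in C57BL/6, was not called, at 0.18 ± 0.11 (SE, adjusted p = 0.291).

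**Figure D4:**
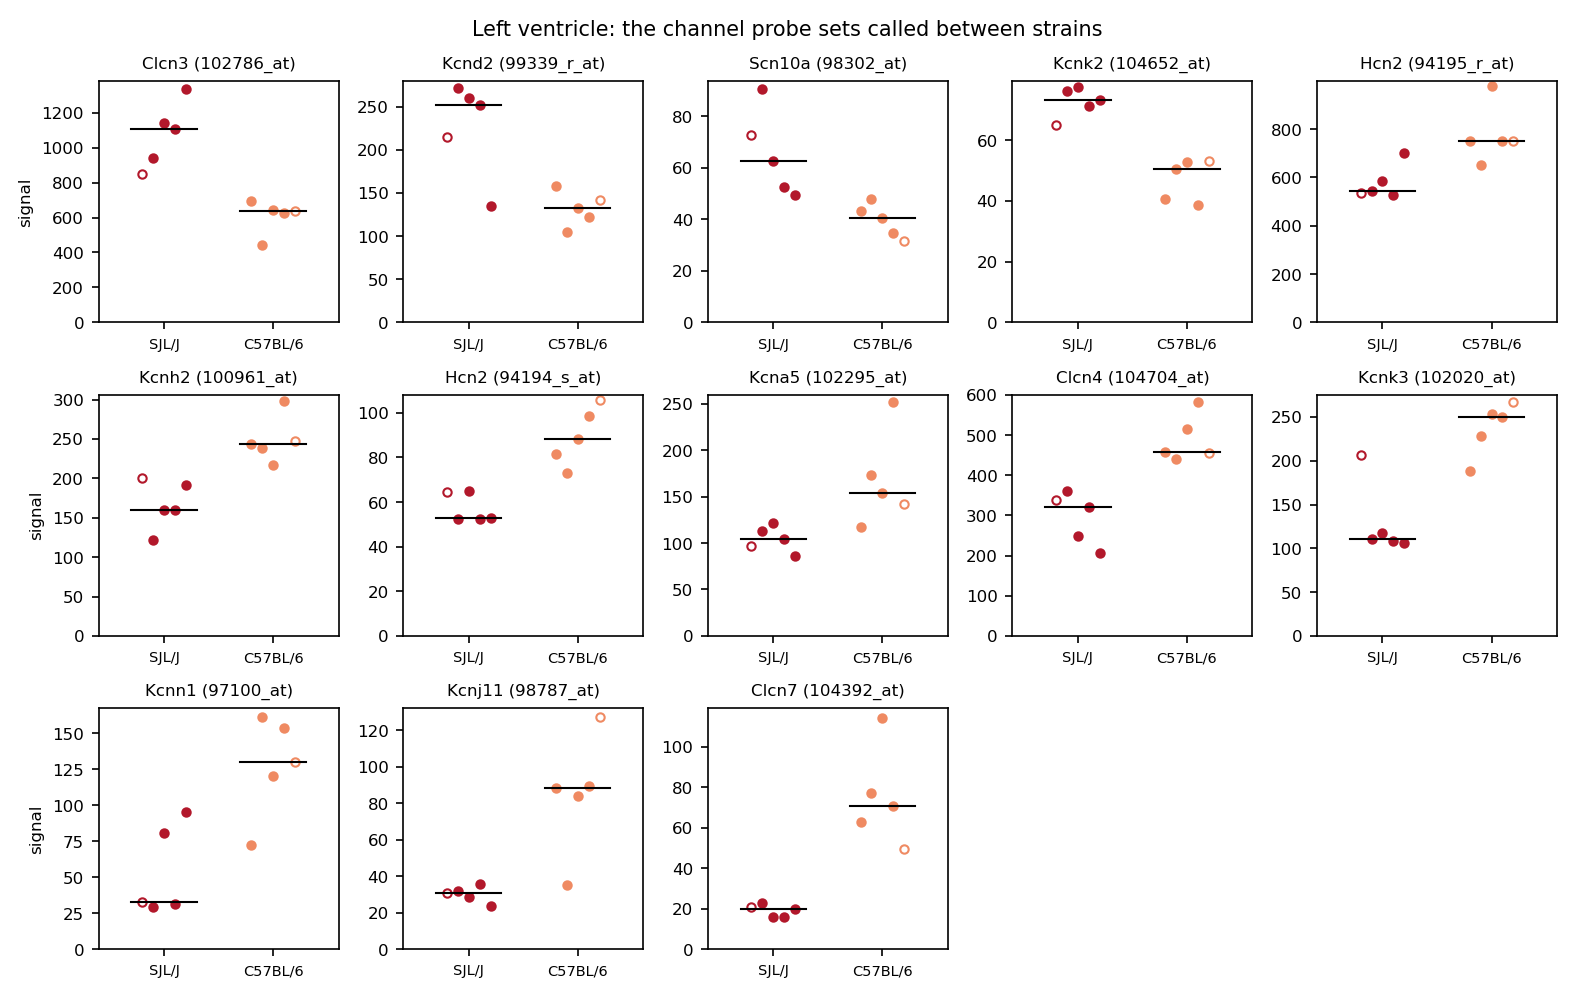
Signal (linear axis from 0) of the 13 channel probe sets called between the strains in left ventricle, SJL/J left of C57BL/6, 1 point per array, a line at the median of 5 and open points for the array of run 3 in each group. The first panels rose and the later ones fell in SJL/J, and Clcn7 stands furthest apart (15.9 to 22.8 in SJL/J, against 49.6 to 114 in C57BL/6).

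In left ventricle both the run and the RNA integrity measure go with strain. Without run 3, 14 probe sets of 12 genes were called, against 17.6% over the array, and 8 of the 13 above were among them. The 5 no longer called kept their direction with 8 arrays: Kcnd2 at 0.79 ± 0.24, Scn10a at 0.58 ± 0.24, Kcna5 at -0.66 ± 0.23, Kcnn1 at -1.23 ± 0.46 and Hcn2 (94195_r_at) at -0.40 ± 0.14 (SE, adjusted p = 0.0594, 0.136, 0.0871, 0.106 and 0.0882). In run 3, which held 1 array of each strain, the differences of the 13 ran from -2.04 for Kcnj11 to 1.19 for Scn10a. These are values with no test from arrays that also entered the choice of the 13. No other run held both strains there, so a fit with the run as a block takes the strain difference from that pair alone. Such a fit cannot tell whether the calls hold apart from the run. With the run as a block limma called 0 of 88, of which 7 had an unadjusted p under 0.05, and 0.330% of the array. With the Gapdh ratio in the fit it called 0 of 88, of which 8 had an unadjusted p under 0.05, and 0.201% of the array, and Kcnk3 and Clcn4 turned to 0.24 and 0.066 (adjusted p = 0.861 and 0.977). The Gapdh ratios of the 2 strains do not overlap in left ventricle, so that ratio and strain cannot be told apart. In the left ventricle 6 of 23 channel partners were higher and 2 lower in SJL/J, against 8.65% higher and 8.61% lower over the array. Among them were Fxyd1, a regulator of the sodium pump, at -1.44 ± 0.12, Rrad at -1.21 ± 0.17 and Calm2, a calmodulin gene, at 1.10 ± 0.14 (SE, adjusted p = 5.54e-05, 0.00106 and 0.000608). Rrad, higher in SJL/J quadriceps, was thus lower in SJL/J left ventricle, a difference of differences of 4.53 ± 0.32 (SE, adjusted p = 1.15e-07). Endothelial markers were lower for 2 of 7, with a summed signal of 2739 to 3688 in SJL/J, against 3094 to 4242 in C57BL/6. Macrophage markers were higher for 3 of 7 and lower for 1, with sums of 1863 to 2753 in SJL/J, against 1341 to 2004 in C57BL/6. Their part in the channel values was not tested.

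**Figure D5:**
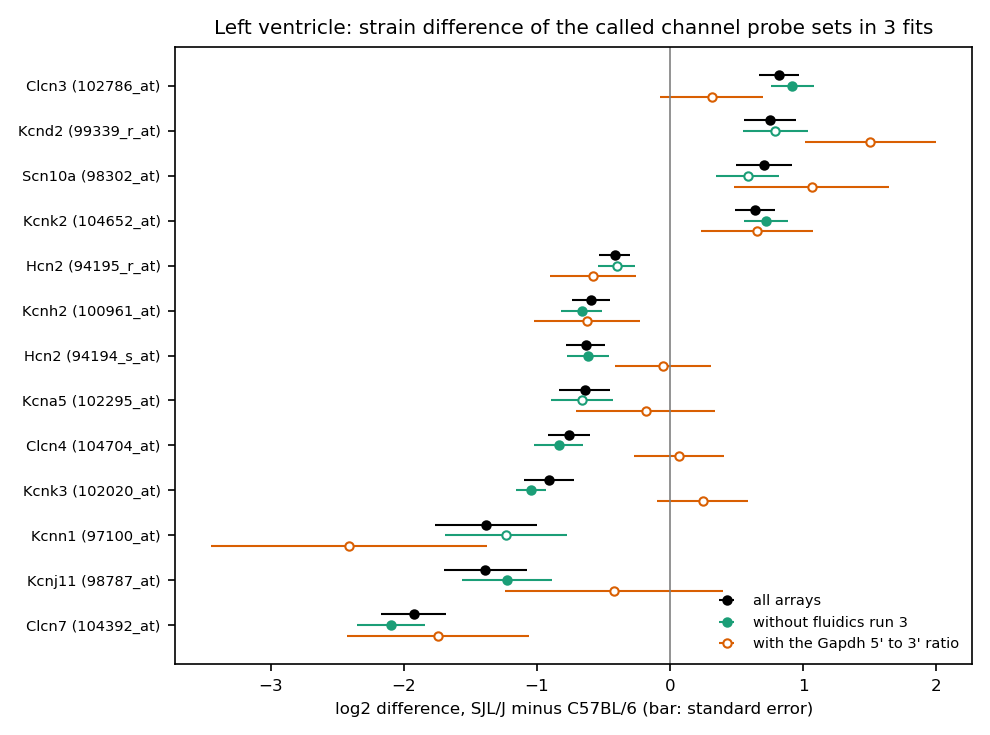
Log2 difference, SJL/J minus C57BL/6, in left ventricle with its standard error for the 13 called channel probe sets in 3 fits: all arrays, without run 3, and with the Gapdh 5′ to 3′ ratio as a covariate; filled points passed the test. With the ratio 0 of 13 passed and the standard errors widened, and Kcnk3 (0.24) and Clcn4 (0.066) crossed 0.

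The strain difference itself differed between the tissues for 3 of 88 channel probe sets, against 6.99% over the array. The value is the strain difference in quadriceps minus that in left ventricle. Kcnma1, lower in SJL/J quadriceps, was not called in left ventricle, where it read 64.8, 47.2, 49.3, 53.4 and 47.4 in SJL/J, against 69.1, 48.6, 38.7, 45.9 and 41.2 in C57BL/6. Its difference of differences was -1.11 ± 0.28 (SE, adjusted p = 0.0185), and -0.98 ± 0.29 (SE, adjusted p = 0.0447) without run 3. Kcnh2 fell in left ventricle, while in quadriceps it read 196, 119, 122, 134 and 217 in SJL/J, against 47.1, 82.9, 107, 187 and 80.2 in C57BL/6. Its value was 1.34 ± 0.38 (SE, adjusted p = 0.0372) on all arrays, 1.12 ± 0.43 (SE, adjusted p = 0.121) without run 3, and -0.27 ± 0.53 (SE, adjusted p = 0.861) with the run as a block, which turned its sign. Kcns1, a silent potassium channel subunit, was called at 2.07 ± 0.62 (SE, adjusted p = 0.0482) on dim signals of at most 40.5, and at 2.24 ± 0.71 (SE, adjusted p = 0.0613) without run 3 it did not pass. Without run 3 the 3 called were Kcnma1, the bright Clcn3 probe set at -1.28 ± 0.37 (SE, adjusted p = 0.0391) and Kcnj8 at -0.91 ± 0.27 (SE, adjusted p = 0.0467), against 9.40% over the array. Kcnma1 is the 1 member called in both. A fit with the run as a block uses only strain differences within a run. In left ventricle these come from run 3, with 1 array of each strain. In quadriceps they come from 1 other run, with 3 SJL/J arrays and 1 C57BL/6 array. That fit cannot tell whether the calls hold apart from the run. With the run as a block 0 of the 3 called on all arrays kept their call, Kcnma1 included. The 1 member called in that fit was another one, against 2.62% over the array.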

How the data were processed

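RNA of 20 tissue samples was hybridised to 20 arrays, from 8 µg each per the labels' protocols. The values deposited by the authors are linear intensities, 1 for each probe set on each array, with trimmed means between 200.1 and 200.2. The method of summarising probes counts as not given in the sources used here. Fluidics runs (5), chip lots (2) and wash protocols (2) were read per the file headers. A new run began after a gap of over 30 minutes. The deposited intensities were raised to at least 3.2, their 5th percentile, before log2 values were formed. Differences over 12422 probe sets, controls left out, came from limma 3.58.1 (R 4.3.3), using lmFit and a trended eBayes and no filter, and p-values were adjusted by Benjamini-Hochberg over all of them (called under 0.05). Tests of array measures were exact permutation tests. In simulated left ventricle data with planted log2 changes of 1 and 2, 19.4% and 71.2% were called. In quadriceps 25.4% and 69.7% were. Each size was planted in 66 or 67 of the 12422 probe sets, with a spread pooled over all 4 groups. The real comparisons called 17.3% of the array in left ventricle and 5.26% in quadriceps, so the simulated shares need not hold for them. The members and lists were chosen with earlier results of these data known.

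Named are all called member probe sets (up to 12 each way per comparison), the 12 brightest genes, genes of the main muscle and heart currents, and, for a called gene with several probe sets, its other ones. A gene counts by its brightest probe set in the fit with 1 per gene, while Hcn2, Kcnq1, Clcn4 and Clcn7 are described first by a dimmer probe set with a larger difference. Of the probe sets, 10833 have 1 symbol, 396 several and 1193 none in the platform's annotation, and all 68 member symbols matched a RefSeq gene table of GRCm38.p6. Probe coordinates were not used here, and strain variants at the probes were not tested. Marker lists held 10 heart, 11 skeletal muscle, 7 nerve and Schwann cell, 5 smooth muscle, 7 endothelial, 7 macrophage and 6 T cell genes that were measured, and further lists held 23 channel partners and 16 endplate and denervation genes. Alternatives were quantile normalization, median centring, a higher floor, a filter on dim probe sets, 1 probe set per gene, the run, chip lot, Gapdh ratio, other-tissue index and replicate number as terms, array weights, and leaving out run 3 or each array. Python 3.11.15 drew the figures.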

Additional observations from a re-analysis of the deposited data

Results flagged for a closer look

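Among the 30 groups of 5 arrays examined for a single far value, 3 held one by Dixon's criterion, and chance alone flags about 1 group in 20. SJL/J left ventricle array 1, an array of run 3, read 206.3 for Kcnk3, a background potassium channel, while the other 4 arrays of its group read 111, 118, 109 and 106. C57BL/6 left ventricle array 2 read 440.8 for the bright Clcn3 probe set, below the other 4 arrays of its group at 695, 644, 628 and 637. SJL/J quadriceps array 4 read 57.4 for Kcnj12, below the other 4 at 75.2, 71.6, 70.4 and 74.5.

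The strain difference was unequal in the 2 tissues for 3 members, by the difference of differences (quadriceps minus left ventricle, log2). The value was -1.11 for Kcnma1, 1.34 for Kcnh2 and 2.07 for Kcns1, a silent subunit with dim signals. Kcnma1 kept its call in all 20 fits that left out 1 array, Kcnh2 in 9 and Kcns1 in 5. With the run as a block 0 of the 3 kept their call.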

How the results depend on the processing

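Counts of called members are given out of 88, and each percentage is the share called over the array in the same fit. With the run as a block, a difference comes only from runs that hold both groups. That is run 3 for left ventricle (1 array of each strain) and for the SJL/J tissues (1 left ventricle and 2 quadriceps arrays). For quadriceps it is 1 other run, with 3 SJL/J arrays and 1 C57BL/6 array. Counts from that fit thus rest on few arrays and cannot tell whether calls hold apart from the run. In quadriceps the count was 2 on all arrays (5.26%). It was 6 with the run as a block (9.76%) and 4 with the chip lot as a block (8.36%). Neither of the 2 was among the members called in those fits. With the Gapdh ratio the count was 0 (1.91%, limma, 10 with an unadjusted p under 0.05), and with array weights 7 (10.7%). With 1 array left out it was 0 to 8, with 0 without SJL/J array 2 (2.75%) and 8 without C57BL/6 array 4 (8.37%). In left ventricle, 13 on all arrays (17.3%), it was 0 with the run as a block (0.330%) and 0 with the Gapdh ratio (0.201%). With 1 array left out it was 8 to 15, with 15 without SJL/J array 1 (20.7%). It was 8 without SJL/J array 2 (13.4%), C57BL/6 array 3 (13.3%) or C57BL/6 array 4 (12.3%). For the difference of differences, 3 on all arrays (6.99%), it was 1 with quantile normalization (7.17%) and 1 with the other-tissue index (5.55%). With the run as a block it was 1 (2.62%), a member not among the 3. Array weights gave 8 (14.3%), and leaving out 1 array gave 1 to 7 (7 without C57BL/6 quadriceps array 4, 11.6%). The SJL/J tissue contrast, 14 on all arrays (18.7%), gave 25 without run 3 (30.5%). With the run as a block it gave 1 (0.0403%), a member not among the 14. It gave 3 with the Gapdh ratio (3.02%), 24 with array weights (28.8%) and 10 to 18 with 1 array left out. The C57BL/6 tissue contrast, 31 on all arrays (30.4%), gave 24 to 34 with 1 array left out and 17 with the run as a random block (17.4%). That alternative was chosen after seeing the data. No run holds both C57BL/6 tissues, so the run could not be fitted as a block. Kcnk3 and Clcn4 in left ventricle changed sign with the Gapdh ratio, to 0.24 and 0.066, and Kcnh2 in the difference of differences changed sign with the run as a block, to -0.27. The cause was not tested. Same-numbered arrays did not deviate together, with correlations of -0.20 to 0.13. Those deviations include the transcripts of the other tissue on run 3 arrays, so they cannot tell whether same-numbered arrays share a mouse. With the replicate block the counts were 0 in quadriceps (2.35%, 12 with an unadjusted p under 0.05) and 4 in left ventricle (10.4%). They were 2 for the difference of differences (6.07%), 11 in the SJL/J (10.5%) and 26 in the C57BL/6 tissue contrast (25.1%). The other alternatives run stayed within 1.5 times of each count, although with the other-tissue index the 2 called in quadriceps were other members. Dim signals, 50 of 88 probe sets, limit what can be seen.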

Other observations

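At the lower end of the scale, Kcna6 read at most 6.5, Scn3a at most 17.3 and Kcnj15 at most 11.9 (99974_at) and 37.5 (99973_s_at) on any of the 20 arrays, examples chosen after their values were seen. Smooth muscle markers were called higher in SJL/J for 1 of 5 in quadriceps and 1 of 5 in left ventricle. Over the array 5.26% of probe sets were called between the strains in quadriceps and 17.3% in left ventricle. In quadriceps 1 of 11 skeletal muscle markers and 1 of 7 endothelial markers were lower in SJL/J, and in left ventricle 4 of 10 heart muscle markers were higher and 2 lower. Limma called 0 of 11 skeletal muscle markers in left ventricle, where 0 had an unadjusted p under 0.05. It called 0 of 7 nerve and Schwann cell markers in either tissue, with an unadjusted p under 0.05 for 2 in quadriceps and 1 in left ventricle. T cell markers were called by limma for 0 of 6 in either tissue, with an unadjusted p under 0.05 for 1 in quadriceps and 0 in left ventricle. Of the 18 genes with several probe sets, the probe sets differed in sign for 8 in the quadriceps strain comparison and 7 in left ventricle, and for 5 in each tissue contrast. In no comparison were probe sets of the same gene called in opposite directions on all arrays.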
